A study of Mus musculus with 38 samples.

Results

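Extraembryonic endoderm (XEN)-like cells were compared 24 h apart, in cells that passed the same sorting gate 72 h and 96 h after retinoic acid (RA) was added at 0.25 µM. Members are the 3 bulk RNA-seq libraries of that gate, PDGFRA+/CD24-, among 25 bulk libraries and 38 samples of the series. 1 library was made at 72 h and 2 at 96 h. Genes were taken as higher or lower at 96 h where both 96 h libraries lay on the same side of the 72 h library, which held for 4218 of 7044 genes tested. Both were set against the same 72 h library, so that an unusual value there alone puts both on one side. A shared side is therefore not an independent replication of a change. All libraries came from the E14 line, mouse embryonic stem cells (mESCs) kept in 2i medium with LIF before N2B27 medium with RA, and no genetic change separated the groups. The fit also used 2 mESC libraries and 2 libraries of ectoderm-like cells (CD24+/PDGFRA-) sorted at 96 h. For description, whole cultures at 72 h, 84 h and 96 h, PDGFRA- cells of 72 h sorted by CD24 into T1, T2 and T3, and a XEN-like culture kept after sorting were used, with 1 library each. That culture was kept for 3 weeks after the sort, in N2B27 medium with EGF and FGF2.

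Primitive endoderm is the inner-cell-mass lineage that gives rise to the yolk sac endoderm, and XEN cells are its in vitro counterpart. Its parietal branch builds a thick basement membrane out of laminin-111, type IV collagen, nidogen and the collagen-binding glycoprotein SPARC, while its visceral branch takes up nutrients by endocytosis and breaks them down in lysosomes. GATA6, GATA4 and SOX17 specify the lineage, and the PDGF receptor PDGFRA is an early surface marker of it. CD24 is a surface glycoprotein of neural lineages.

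The total was 1358470 UMIs (unique molecular identifiers, which count each captured molecule once) at 72 h, and 1965831 and 1095247 UMIs in replicates 1 and 2 at 96 h. Levels are given as counts per 1000000 UMIs of a library (CPM), and genes with at least 30 UMIs over the 3 libraries were tested. In bulk samples, fewer cells of a type and less RNA per cell cannot be told apart. The study's methods call the 96 h replicates biological, and the labels only number them. Whether they came from separate differentiations is not given in the sources used here. Labels of both 96 h libraries list a barcode and that of the 72 h library does not, so that time and this difference in the labels cannot be told apart within the gate.

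The XEN label was checked first. All 11 XEN markers passed the count filter. The gate's own markers went with the sort. Pdgfra was at 116 CPM at 72 h and at 144 and 143 CPM at 96 h, against 25.6 CPM in the whole culture of 72 h. Cd24a was at 14.7 CPM at 72 h and at 9.16 and 14.6 CPM at 96 h, against 127 CPM in the whole culture of 72 h. Summed over the list, XEN markers made up 4387 CPM at 72 h and 12069 and 6676 CPM at 96 h, against 281 and 197 CPM in mESCs. In the whole culture the same sum was 3450 CPM at 72 h, below the sorted cells. At 96 h it was 12315 CPM there, above both sorted libraries. The pluripotency list summed to 7180.1 CPM at 72 h, above the XEN markers, and to 6277 and 4531 CPM at 96 h. It was at 2567 CPM in the whole culture of 72 h, at 4650.2, 1986 and 1316 CPM in PDGFRA- T1, T2 and T3, and at 13450 and 18373 CPM in mESCs. At 72 h nearly all of this sum was Dppa5a (6932 CPM). None of the markers of mesoderm (6 genes), trophoblast (14) or endothelium and blood (12) passed the count filter, and their sums stayed between 2.94 and 20.1 CPM in the 3 libraries.

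Before single genes, the libraries were compared as wholes. The median absolute log2 difference per gene was 0.350 between both 96 h replicates, 0.305 between replicate 1 and the 72 h library, and 0.282 between replicate 2 and the 72 h library. Both 96 h libraries therefore lay farther from each other than either lay from the 72 h library, at Pearson correlations of log2 values of 0.947, 0.960 and 0.962 in the same order. For 1868 genes the replicates were the closest pair, for 2364 genes replicate 1 and the 72 h library, and for 2812 genes replicate 2 and the 72 h library. The mESC libraries differed by 0.344 and the ectoderm-like replicates by 0.339 on the same measure. In the whole culture, 72 h and 96 h were 0.269 apart.

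Across all genes, 2551 (36.2%) were higher in both 96 h libraries than at 72 h and 1667 (23.7%) were lower in both, while the 72 h level lay between the replicates for 2826 (40.1%). At least 2-fold above 72 h in both 96 h libraries were 173 genes (2.46%), and at least 2-fold below were 3 (0.0426%), namely B3galnt1, Cox7a1 and Snhg4. Of the 4218 genes on one side, 60.5% were higher on the scale of library totals. That share was 49.7% with TMM-scaled values and 46.8% for the 1866 genes with at least 300 UMIs, of which only 5 were past 2-fold, all of them higher. These 5 were Sparc, Col4a1, Mdk, Cyr61 and Epas1. Epas1, which encodes the hypoxia-inducible factor HIF-2α, was at 22.1 CPM at 72 h and at 105 and 66.7 CPM at 96 h. Among genes past 2-fold, TMM-scaled values gave 145 higher and 6 lower. The excess of higher over lower genes among all those on one side was thus present on the scale of library totals and not with TMM scaling or the higher count filter, while genes past 2-fold were mostly higher on each of these scales.

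No gene passed the test. edgeR's quasi-likelihood test with Benjamini-Hochberg adjustment called 0 of 7044 genes (0%) at an adjusted p of 0.05, and the smallest adjusted p was 0.9996. At an unadjusted p under 0.05 there were 110 genes with a higher and 22 with a lower level at 96 h. DESeq2 also called 0 genes, with 43 and 6 at an unadjusted p under 0.05. The biological coefficient of variation was 0.236 with 3 residual degrees of freedom, and the lone 72 h library was assumed to vary like the paired groups. Every difference below is therefore a description of 3 libraries, and any p beside one is unadjusted and from edgeR. Each SE is the one implied by the F statistic of that test, which gives no SE of its own.

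**Figure D1:**
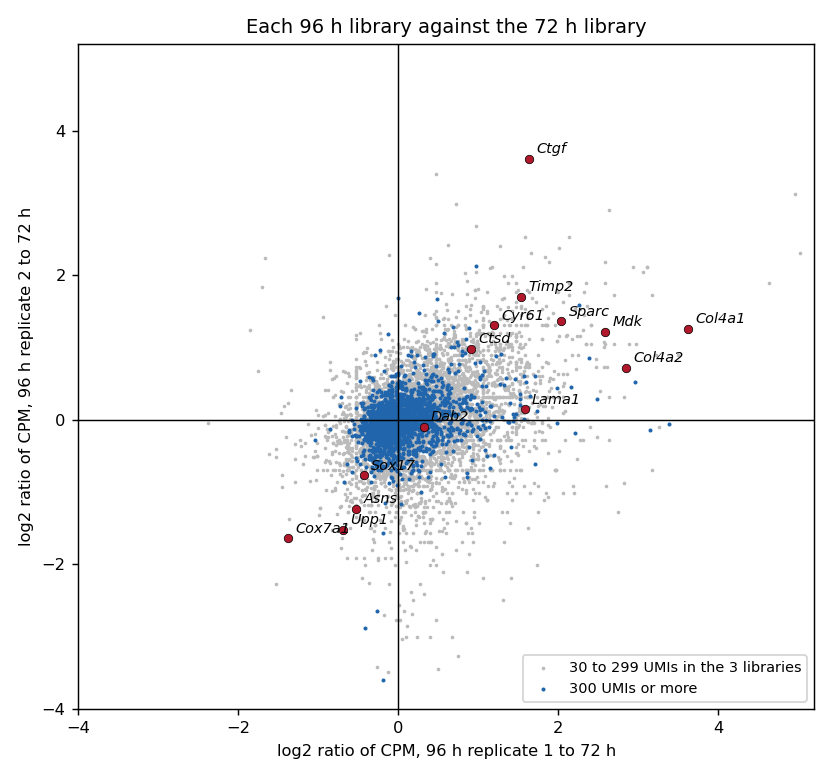
Each point is a gene with UMIs in all 3 libraries, placed by the log2 ratio of CPM of 96 h replicate 1 (horizontal) and replicate 2 (vertical) to the 72 h library. Genes with fewer than 300 UMIs are grey, those with 300 UMIs or more are blue, and named genes are red. 7040 genes are drawn and 2 lie outside the axes. The cloud is centred near 0 on both axes, and Sparc, Col4a1, Mdk and Ctgf stand off towards the upper right while Asns, Upp1 and Cox7a1 lie at the lower left.

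Transcript length moved with the difference between libraries. Lengths were known for 6672 of the genes tested (94.7%). From the shortest to the longest quartile of genes, the median log2 difference of replicate 1 from the 72 h library was -0.03, 0.07, 0.21 and 0.49. The same medians for replicate 2 were -0.01, -0.02, 0.00 and 0.03. Against the whole culture of 72 h, the 72 h sort had medians of 0.00, -0.08, -0.19 and -0.47. Long transcripts were thus counted at higher shares in replicate 1 than in either of the other sorted XEN-like libraries. Taken relative to genes of like length (in 10 length bins, an alternative chosen after the data were seen), 30.6% of genes were higher in both 96 h libraries and 30.6% lower, with 71 and 8 genes past 2-fold in place of 106 and 2 among the same genes. The part of length in the differences below was not tested, and values relative to genes of like length are given for the lists and genes with the main differences.

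**Figure D2:**
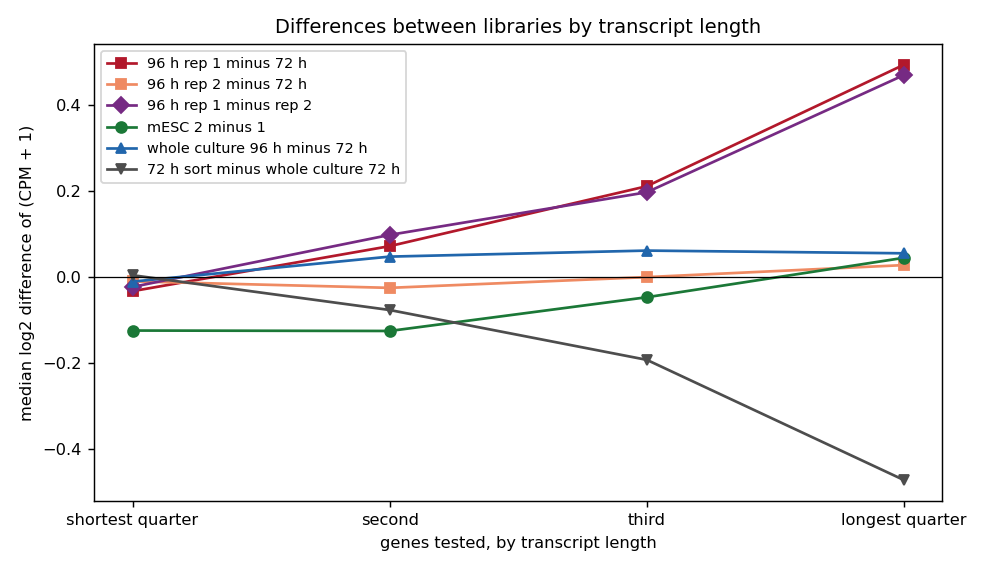
Median log2 difference of (CPM + 1) between pairs of libraries (vertical axis) for genes in 4 quartiles of transcript length (horizontal axis), 1 line per pair. Replicate 1 minus 72 h reaches 0.49 in the longest quartile, whereas replicate 2 minus 72 h stays between -0.02 and 0.03.

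Of the gene lists, the basement membrane had the highest median log2 difference. Of 30 listed genes 13 passed the filter, and 10 of them were higher in both 96 h libraries and 1, Smoc1, was lower, against 36.2% and 23.7% of all genes. Their median log2 difference was 0.87, beside 0.02 for all genes tested. By the share of members higher in both libraries, the BMP and TGF-β list stood above it (9 of 11). No member passed the test, and the list shares 6 genes with the XEN markers. Relative to genes of like length, 10 of 13 members were above and 2 below in both libraries, beside 30.6% of all genes in each direction. The members are long, with a median of 6450 bases against 2860 bases for all genes, and their median relative to like-length genes was 0.83 in replicate 1 and 0.08 in replicate 2.

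Sparc, the collagen-binding matrix glycoprotein, was at 1331 CPM at 72 h and at 5463 and 3419 CPM at 96 h. Both 96 h libraries were above, by 4.10-fold (95% interval of the count ratio 3.90 to 4.32) and 2.57-fold (2.43 to 2.72). These intervals, exact and conditional on the sum of both counts, cover counting error only. The fitted log2 difference was 1.65 ± 0.70 (SE, unadjusted p = 0.0394, edgeR). Sparc is not a long transcript, and relative to genes of like length the log2 differences were 1.98 and 1.39. In the whole culture Sparc was at 1738, 3268 and 6210 CPM at 72 h, 84 h and 96 h. In the XEN-like culture it was at 5894 CPM.

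Col4a1 encodes the α1 chain of type IV collagen, the network collagen of basement membranes. It was at 98.6 CPM at 72 h and at 1210 and 236 CPM at 96 h. Both libraries were higher, but they differed from each other by 5.12-fold. The fitted log2 difference was 2.76 ± 0.87 (SE, unadjusted p = 0.00962, edgeR). Col4a2, the α2 chain that joins α1 in the same trimer, was at 49.3 CPM at 72 h and at 354 and 81.3 CPM at 96 h, with a fitted log2 difference of 2.04 ± 0.77 (SE, unadjusted p = 0.0236, edgeR). Both chains thus showed the same order of the 3 libraries, with replicate 1 far above replicate 2. Relative to genes of like length, the log2 difference of replicate 1 was 2.91 for Col4a1 and 2.12 for Col4a2, and that of replicate 2 was 1.19 and 0.65.

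The genes of both collagen chains lie head to head on chromosome 8 (GRCm38, GENCODE M21), Col4a1 at chr8:11198423-11312826 on the minus strand and Col4a2 at chr8:11312805-11449287 on the plus strand. They are shown because these neighbours were ordered alike in all 3 libraries. That order was not particular to them, since Sparc, Lama1, Lamb1 and Lamc1, on other chromosomes, had it too. The promoter windows of RefSeq (GRCm38.p6), from 250 bases before to 50 bases after each start, cover chr8:11312777-11313076 for Col4a1 and chr8:11312555-11312854 for Col4a2. They overlap over 78 bases, chr8:11312777-11312854, which are in capitals below, each window written 5′ to 3′ on the strand of its own gene.
Col4a1: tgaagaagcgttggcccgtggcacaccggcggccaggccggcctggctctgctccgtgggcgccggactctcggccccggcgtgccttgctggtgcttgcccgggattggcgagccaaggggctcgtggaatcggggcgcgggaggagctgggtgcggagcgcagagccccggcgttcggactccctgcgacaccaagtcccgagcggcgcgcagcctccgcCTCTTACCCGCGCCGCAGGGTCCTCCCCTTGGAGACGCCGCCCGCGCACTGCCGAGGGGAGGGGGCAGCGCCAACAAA
Col4a2: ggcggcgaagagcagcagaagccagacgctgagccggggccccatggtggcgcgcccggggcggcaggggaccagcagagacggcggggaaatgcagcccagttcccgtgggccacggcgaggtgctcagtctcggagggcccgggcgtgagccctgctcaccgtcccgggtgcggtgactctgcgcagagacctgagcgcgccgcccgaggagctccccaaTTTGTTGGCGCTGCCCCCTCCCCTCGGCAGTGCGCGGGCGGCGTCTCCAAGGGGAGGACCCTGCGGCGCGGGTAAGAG
The windows hold 74.0% and 73.7% G or C, beside 53.8% over all 32851 promoter windows, and 37 and 33 CG dinucleotides. The motif CCCTCCCC, searched on both strands, occurs 1 time in each window and lies within the shared bases, so that both windows hold the same copy. It occurs in 10.8% of all windows. The match describes the letters and not a site of binding.

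Laminin-111 is the cross-shaped heterotrimer of the chains encoded by Lama1, Lamb1 and Lamc1. Lama1 was at 364 CPM at 72 h and at 1087 and 402 CPM at 96 h. Lamb1 was at 758 CPM at 72 h and at 1368 and 856 CPM at 96 h. Lamc1 was at 281 CPM at 72 h and at 777 and 298 CPM at 96 h. In all 3 chains replicate 1 stood well above 72 h, by 2.99-, 1.80- and 2.76-fold, whereas replicate 2 was 1.105-, 1.130- and 1.058-fold above. The counting interval of the replicate 2 ratio included no change for Lama1 (0.969 to 1.26) and Lamc1 (0.910 to 1.23), but not for Lamb1 (1.03 to 1.24). Fitted log2 differences were 0.93 ± 0.61, 0.46 ± 0.51 and 0.83 ± 0.48 (SE, edgeR), with unadjusted p of 0.155, 0.386 and 0.110. All 3 transcripts are in the longest quartile, and in replicate 2 they lay only 0.08, 0.17 and 0.02 above genes of like length on the log2 scale.

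Other basement membrane genes were at lower levels. Nid1, a nidogen that links laminin to collagen, was at 35.3 CPM at 72 h and at 86.5 and 50.2 CPM at 96 h. Its relative Nid2 was at 33.1 CPM and at 48.8 and 33.8 CPM. Tinagl1, a laminin-binding matrix protein, was at 14.7 CPM at 72 h and at 38.2 and 54.8 CPM at 96 h, and was past 2-fold in both. Perlecan (Hspg2) and agrin (Agrn), the heparan sulphate proteoglycans, had 72 h levels between both replicates. Hspg2 was at 4.42 CPM and at 14.8 and 1.83 CPM, and Agrn at 10.3 CPM and at 16.8 and 9.13 CPM. Smoc1, a SPARC-related calcium-binding protein, was at 18.4 CPM at 72 h and at 15.8 and 10.0 CPM at 96 h.

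Of the 5 XEN markers outside the matrix, Pdgfra and Gata4 were higher in both 96 h libraries and the others were not, though Pdgfra was at -0.077 relative to genes of like length. Dab2, an adaptor of clathrin-mediated endocytosis, was at 1016 CPM at 72 h and at 1265 and 951 CPM at 96 h, so that the 72 h level lay between the replicates. Its fitted log2 difference was 0.04 ± 0.79 (SE, unadjusted p = 0.958, edgeR) and turned negative under 3 alternatives. Gata6 was at 102 CPM and at 148 and 91.3 CPM, again with 72 h in between. Gata4 was at 68.5 CPM at 72 h and at 102 and 78.5 CPM at 96 h. Sox17 was the only one of the 11 markers below 72 h in both 96 h libraries, at 202 CPM at 72 h and at 150 and 119 CPM at 96 h. Its fitted log2 difference was -0.67 ± 0.53 (SE, unadjusted p = 0.232, edgeR). Of all genes tested, 36.2% were higher and 23.7% lower, and 30.6% each relative to genes of like length. In all, 8 of 11 XEN markers were higher in both 96 h libraries, 1 was lower and 2 lay between, with a median log2 difference of 0.46, and against genes of like length 7 were higher and 1 lower. Their median difference from 72 h was 0.85 in replicate 1 and 0.18 in replicate 2. Of the markers given for the XEN-like cells, Sparc and Lama1 were higher in both 96 h libraries and Dab2 was not.

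**Figure D3:**
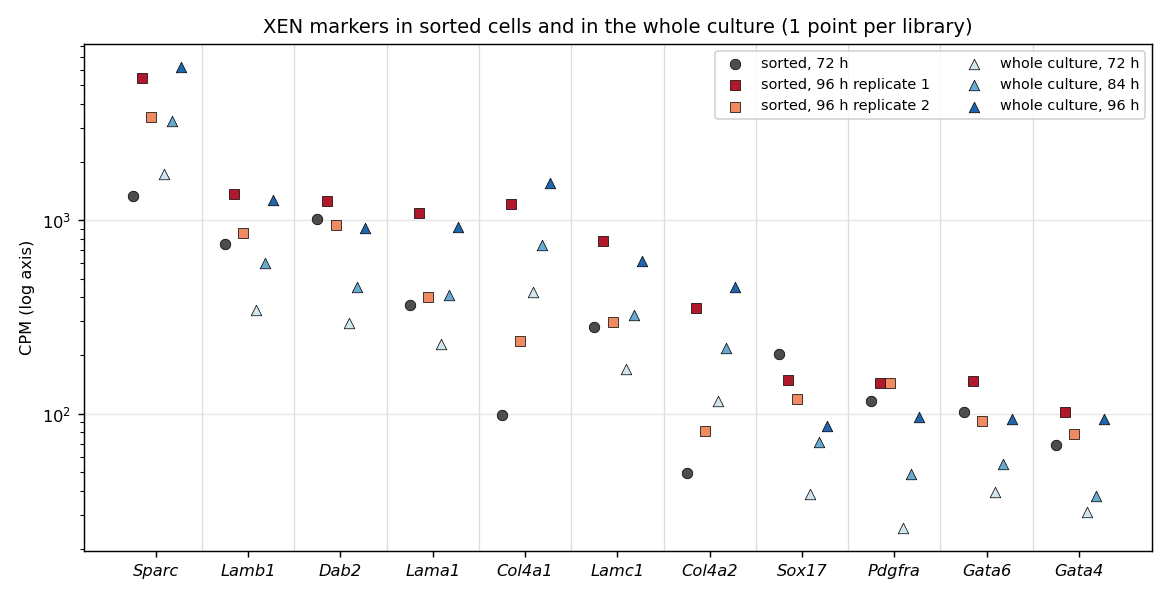
Levels of the 11 XEN markers in CPM (log axis), 1 point per library: the PDGFRA+/CD24- sort at 72 h (circles) and 96 h (squares) and the whole culture at 72 h, 84 h and 96 h (triangles). Each marker climbs in the whole culture from 72 h to 96 h. In the sorted cells Sparc, Col4a1 and Col4a2 lie above 72 h in both replicates by at least 1.65-fold, while Dab2 and Gata6 straddle the 72 h level and Sox17 lies below it.

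The whole culture shares no library with the sort and was compared as a separate sample. There all 11 markers were higher at 96 h than at 72 h, Dab2 at 294, 450 and 909 CPM and Sox17 at 38.2, 71.1 and 86.2 CPM at 72 h, 84 h and 96 h. At 72 h, the sorted cells held 3.46 times the level of the whole culture for Dab2, 5.30 times for Sox17 and 4.53 times for Pdgfra. For Lama1, Lamb1 and Lamc1 the same ratios were 1.58, 2.21 and 1.65. By contrast, the sorted cells were below the whole culture for Sparc (0.766 times), Col4a1 (0.232 times) and Col4a2 (0.426 times) at 72 h. At 96 h, replicates 1 and 2 stood at 0.880 and 0.551 times the whole culture for Sparc and at 0.773 and 0.151 times for Col4a1. At both times Sparc and Col4a1 were thus at higher levels in the unsorted culture than in the sorted cells. The libraries at 72 h differ in the form of their labels, and the part of this in the ratios was not tested.

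Over all genes, 59.7% of those higher in the sorted cells at 96 h were also higher in the whole culture at 96 h than at 72 h, beside 53.8% of all genes tested. Of those lower, 55.0% were also lower, beside 46.2%. In single cells profiled by SCRB-seq, summed over the wells with more than 2000 UMIs (235 cells at 72 h and 137 at 96 h), the shares were 59.0% beside 53.6% and 53.3% beside 46.1%. Sparc was at 6.83 UMIs per 10000 in the cells of 72 h and 36.4 in those of 96 h, Lama1 at 3.59 and 23.6, Col4a1 at 4.63 and 27.2, and Dab2 at 1.19 and 4.51. These plates hold ectoderm-like cells as well, and 1 plate per time was used, so that a change in the share of XEN-like cells cannot be told apart from a change within them.

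The machinery that folds and exports collagen was examined next. Of 17 genes tested, 10 were higher in both 96 h libraries, 1 was lower and 6 lay between, with a median log2 difference of 0.43, and none passed the test. The shares of this list were 58.8% higher and 5.9% lower, beside 36.2% and 23.7% of all genes tested. Over the 15 with a known length, the median was 0.52 in replicate 1 and 0.24 in replicate 2. Serpinh1, the collagen chaperone HSP47, was at 528 CPM at 72 h and at 926 and 641 CPM at 96 h. Ppib, the prolyl isomerase cyclophilin B, was at 596 CPM and at 869 and 820 CPM. P4hb, the β subunit of prolyl 4-hydroxylase, was at 673 CPM and at 962 and 614 CPM, with 72 h between the replicates. Outside this list, Pdia5, a protein disulphide isomerase, led all tested genes with a higher level by p (unadjusted p = 0.00436, edgeR). It was at 15.5 CPM at 72 h and at 76.3 and 36.5 CPM at 96 h, a fitted log2 difference of 1.79 ± 0.49 (SE), and relative to genes of like length it was 2.18 and 1.20 above. Relative to genes of like length, 10 of 15 genes of the collagen list were higher and 2 lower, beside 30.6% of all genes in each direction. Of the general chaperones and stress genes of the endoplasmic reticulum, 5 of 21 tested were higher and 5 lower, and 5 and 6 relative to genes of like length. The chaperone Hsp90b1, known as GRP94, was at 1382 CPM at 72 h and at 2916 and 1283 CPM at 96 h, and the disulphide isomerase Pdia6 at 1016 CPM and at 1718 and 1234 CPM.

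Genes of endocytosis and lysosomal breakdown included 15 higher, 3 lower and 9 between of 27 tested, with a median log2 difference of 0.35 and none past the test. The shares of this list were 55.6% higher and 11.1% lower, beside 36.2% and 23.7% of all genes tested. Against genes of like length, 13 were higher and 6 lower (48.1% and 22.2%), beside 30.6% of all genes in each direction. Ctsd, the lysosomal aspartic protease cathepsin D, was at 269 CPM at 72 h and at 507 and 532 CPM at 96 h. The replicates agreed closely for this gene, and both were above 72 h, by 1.88- and 1.98-fold. The fitted log2 difference was 0.88 ± 0.33 (SE, unadjusted p = 0.0251, edgeR), and relative to genes of like length the values for Ctsd were 0.85 and 1.005. Ctsl, cathepsin L, was at 911 CPM and at 1469 and 1826 CPM, and Ctsz, cathepsin Z, at 88.3 CPM and at 215 and 166 CPM. Cd63, a tetraspanin of late endosomes, was at 1343 CPM at 72 h and at 1369 and 1869 CPM at 96 h. Lrpap1, the chaperone of LDL receptor family members, was at 704 CPM at 72 h and at 2302 and 1067 CPM at 96 h. Of the uptake receptors, megalin (Lrp2) was at 38.3 CPM at 72 h and at 95.6 and 38.4 CPM at 96 h, and cubilin (Cubn) at 130 CPM and at 235 and 74.9 CPM. Replicate 1 alone was well above 72 h for both receptors, whose transcripts are among the longest.

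Lists of the parietal and visceral branches overlap with those above. Of 15 tested genes of parietal endoderm 9 were higher in both 96 h libraries and 1 lower (median log2 difference 0.46), and of 11 genes of visceral endoderm 5 were higher and 1 lower (0.66), with none past the test in either. Over the 10 visceral genes with a known length, the median difference from 72 h was 0.86 in replicate 1 and -0.04 in replicate 2. Pth1r, the receptor for parathyroid hormone-related protein, which drives parietal differentiation, was at 173 CPM at 72 h and at 190 and 172 CPM at 96 h. Ttr, the thyroid hormone carrier transthyretin of the visceral branch, was at 16.9 CPM at 72 h and at 25.9 and 90.4 CPM at 96 h. Cited1, a transcriptional coregulator, was the most abundant visceral gene, at 423 CPM at 72 h and at 335 and 535 CPM at 96 h. Relative to genes of like length, 9 of 15 parietal genes were higher and 0 lower, and 3 of 10 visceral genes were higher and 1 lower. These are 60% and 0% of parietal and 30% and 10% of visceral genes, beside 30.6% of all genes in each direction. Without regard to length the shares were 60% and 6.7% for parietal and 45.5% and 9.1% for visceral genes, beside 36.2% and 23.7%.

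Transcription factors of endoderm were mostly between. Of 17 tested, 5 were higher, 2 lower and 10 between, with a median log2 difference of 0.24. Of all genes tested, 36.2% were higher, 23.7% lower and 40.1% between. The median of the list was 0.54 in replicate 1 and -0.05 in replicate 2. Besides Gata4, Gata6 and Sox17, the zinc finger factor Klf6 was at 173 CPM at 72 h and at 238 and 186 CPM at 96 h, and the ETS factor Elf3 at 148 CPM and at 180 and 95.0 CPM. Foxa2, the forkhead factor shared by definitive endoderm and anterior visceral endoderm, was at 22.1 CPM and at 32.6 and 21.9 CPM. Of 11 tested genes of the retinoid response 3 were higher and 2 lower, and Cyp26a1, the RA-degrading enzyme, was at 239 CPM at 72 h and at 271 and 148 CPM at 96 h. Stra6, the receptor for retinol-binding protein, was at 54.5 CPM at 72 h and at 58.5 and 56.6 CPM at 96 h. Meis1, a homeodomain cofactor, was at 28.7 CPM and at 53.4 and 38.3 CPM.

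Genes of the cytoskeleton and of epithelial-mesenchymal transition counted 10 higher and 2 lower of 16 tested, and 4 of the 10 were past 2-fold in both libraries. The shares of this list were 62.5% higher and 12.5% lower, beside 36.2% and 23.7% of all genes tested, of which 2.46% were past 2-fold above. Against genes of like length, 9 were higher and 1 lower (56.2% and 6.25%), beside 30.6% of all genes in each direction. Ctgf, a secreted matricellular protein and a common target of YAP signalling, was at 5.89 CPM at 72 h and at 18.3 and 72.1 CPM at 96 h. This rested on 8, 36 and 79 UMIs, and here replicate 2 was the higher. The fitted log2 difference was 2.83 ± 0.92 (SE, unadjusted p = 0.0113, edgeR), and relative to genes of like length the values for Ctgf were 1.36 and 3.435. Its relative Cyr61 was at 36.1 CPM and at 82.4 and 89.5 CPM, and its fitted log2 difference was -0.038 with a term for the form of the labels. That term rests on the difference between the 2 mESC libraries alone, and whether it holds for XEN-like cells was not tested. Myl9, a regulatory light chain of smooth muscle and nonmuscle myosin, had 6 UMIs at 72 h and 31 and 23 UMIs at 96 h (4.42 CPM at 72 h), and Acta2, smooth muscle actin, was at 8.10 CPM and at 23.4 and 23.7 CPM. None of these 4 is in the longest quartile of transcripts. Vim, the intermediate filament protein vimentin, was at 148 CPM at 72 h and at 129 and 147 CPM at 96 h. The most abundant members were Tagln2, a calponin-related actin-binding protein, at 731 CPM and at 583 and 1087 CPM, and the tropomyosin Tpm4, at 173 CPM and at 196 and 204 CPM. Of 9 tested genes of epithelial keratins and adhesion 4 were higher and 2 lower (44.4% and 22.2%), beside 36.2% and 23.7% of all genes. Keratin 8 (Krt8) was at 105 CPM at 72 h and at 165 and 142 CPM at 96 h, and the tight junction protein claudin 6 (Cldn6) at 208 CPM and at 154 and 231 CPM. With a term for the form of the labels, fitted log2 differences were -0.22 for Krt8, -0.33 for Tpm4 and 0.045 for Vim. Each was opposite in sign to the main fit, as were those of Tagln2 and Cldn6.

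**Figure D4:**
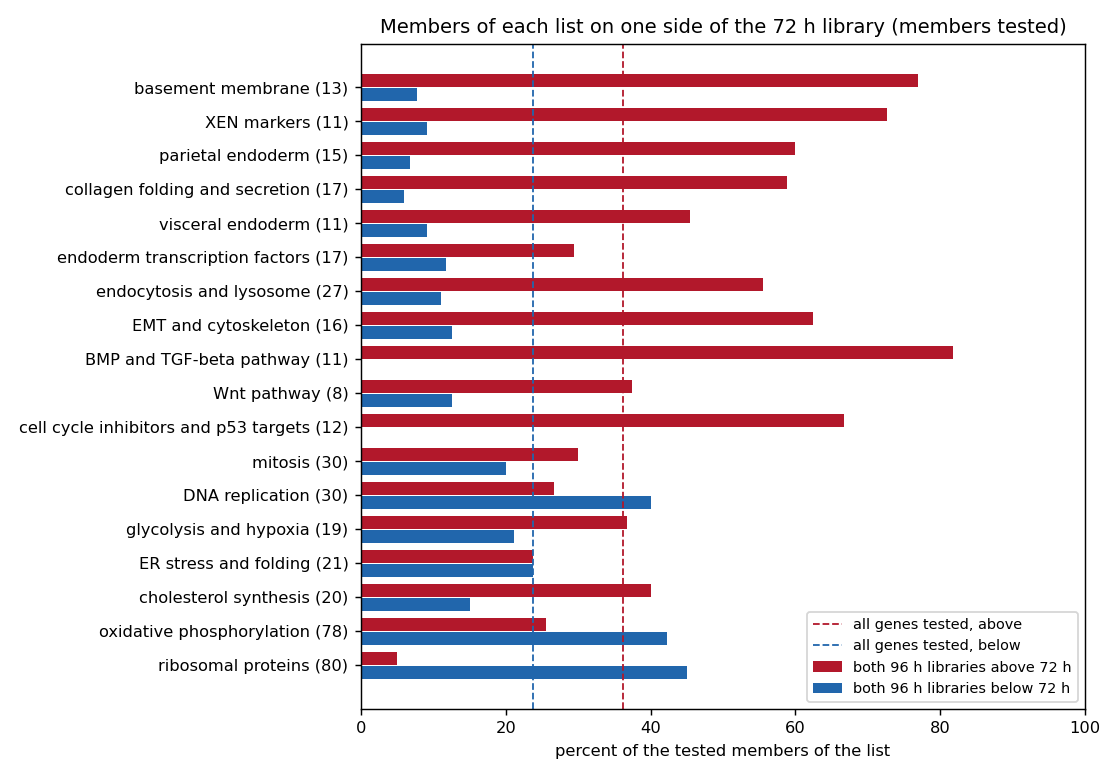
Percent of the tested members of each gene list (number in brackets) that were above the 72 h library in both 96 h libraries (red) or below it in both (blue). Dashed lines mark the same percentages of all genes tested, 36.2% and 23.7%. Basement membrane genes reach 76.9% above, and ribosomal protein genes 5% above and 45% below.

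Few genes of the signalling lists passed the filter, and 36.2% of all genes tested were higher and 23.7% lower. Of 11 tested genes of the BMP and TGF-β pathways 9 were higher in both 96 h libraries and none lower, among them Fst, the activin antagonist follistatin, at 65.5 CPM and at 118 and 142 CPM. Relative to genes of like length, 6 were higher and 1 lower (54.5% and 9.09%), beside 30.6% of all genes in each direction. Id2, an inhibitor of helix-loop-helix factors and a common BMP target, was at 41.2 CPM at 72 h and at 37.6 and 79.4 CPM at 96 h. Of 8 tested genes of the Wnt pathway 3 were higher and 1 lower (37.5% and 12.5%). Tcf7l2, a DNA-binding partner of β-catenin, was at 54.5 CPM at 72 h and at 97.2 and 103 CPM at 96 h. The lower one was Dkk1, a secreted Wnt antagonist also known from the anterior visceral endoderm, at 289 CPM at 72 h and at 180 and 159 CPM at 96 h (fitted log2 difference -0.84 ± 0.62, SE, unadjusted p = 0.205, edgeR). In the whole culture Dkk1 was at 51.8, 95.5 and 106 CPM over the same times. Of 7 tested genes of the PDGF, FGF and ERK pathway 2 were higher and 1 lower, and Spry2, a feedback inhibitor of receptor tyrosine kinase signalling, was at 16.9 CPM and at 11.2 and 9.13 CPM.

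Lists of growth and metabolism had medians between -0.15 and 0.25. Of all genes tested, 36.2% were higher and 23.7% lower, and 30.6% each relative to genes of like length. For DNA replication 8 of 30 genes were higher and 12 lower (median log2 difference -0.15, with 4 and 14 relative to genes of like length), and for mitosis 9 of 30 were higher and 6 lower (0.14). The mitosis median was 0.35 in replicate 1 and -0.15 in replicate 2. Tyms, thymidylate synthase, was at 289 CPM at 72 h and at 243 and 270 CPM at 96 h, and Pcna, the sliding clamp of DNA polymerase, at 227 CPM and at 225 and 277 CPM. Birc5, the mitotic protein survivin, was at 499 CPM and at 435 and 431 CPM, and cyclin B1 (Ccnb1) at 404 CPM and at 329 and 354 CPM. Each of the 3 genes Tyms, Birc5 and Ccnb1 was below 72 h in both libraries. Cell cycle inhibitors and p53 targets counted 8 higher and 0 lower of 12 tested (0.25), but 4 higher relative to genes of like length. The p53 targets Bax and Ccng1 were at 151 and 97.9 CPM at 72 h, Bax at 166 and 182 CPM and Ccng1 at 105 and 133 CPM at 96 h. Ribosomal protein genes, which are short, counted 4 higher and 36 lower of 80 tested (-0.15), or 5% and 45% against 36.2% and 23.7% of all genes. Against genes of like length, 11 of 79 were higher and 30 lower. Their sum was 263890 CPM at 72 h and 235770 and 268250 CPM at 96 h, so that replicate 1 lay below 72 h and replicate 2 above. Genes of oxidative phosphorylation counted 20 higher and 33 lower of 78 (-0.14), and 22 and 27 of 77 against genes of like length. Over genes with a known length, their median was -0.12 in replicate 1 and 0.04 in replicate 2. That of ribosomal protein genes was -0.17 and 0.0073, and that of inhibitors and p53 targets 0.10 and 0.47.

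Glycolysis and stress genes included some of the most abundant transcripts. Gapdh was at 2451 CPM at 72 h and at 2806 and 2326 CPM at 96 h, and enolase 1 (Eno1) at 3079 CPM and at 2246 and 3048 CPM. Of 12 tested immediate early and heat shock genes 6 were higher and 1 lower (50% and 8.3%), beside 36.2% and 23.7% of all genes. The lower one was Hspa8, the constitutive HSP70, at 2529 CPM and at 2525 and 2207 CPM. Hsp90aa1, an HSP90, was at 958 CPM and at 1499 and 856 CPM.

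Pluripotency and ectoderm genes were measured as well, and the former summed to more in the gate than in the whole culture. Dppa5a, an RNA-binding protein of mESCs, was at 6932 CPM in the sorted cells at 72 h and at 5957 and 4359 CPM at 96 h, against 2295 CPM in the whole culture of 72 h. Of 6 tested pluripotency genes 1 was higher and 1 lower (16.7% each), beside 36.2% and 23.7% of all genes tested. Nanog, a core factor of naive pluripotency, had 127 UMIs at 72 h and 189 and 58 UMIs at 96 h (93.5 CPM at 72 h and 96.1 and 52.96 CPM at 96 h). Of the later epiblast the DNA methyltransferases Dnmt3a and Dnmt3b were tested, Dnmt3a at 6.63 CPM and at 22.4 and 10.0 CPM and Dnmt3b at 17.7 CPM and at 24.4 and 16.4 CPM. The ectoderm list summed to 244 CPM at 72 h and to 612 and 323 CPM at 96 h, against 2684 CPM in the whole culture of 72 h. Mdk, the heparin-binding growth factor midkine, was the most abundant member in both 96 h libraries and second to Fabp5 at 72 h. Mdk was at 71.4 CPM at 72 h and at 429 and 166 CPM at 96 h. Its fitted log2 difference was 1.96 ± 0.56 (SE, unadjusted p = 0.00548, edgeR), and relative to genes of like length the values for Mdk were 2.65 and 1.205. Mdk went the other way in the whole culture, with 1170.1, 952 and 712 CPM at 72 h, 84 h and 96 h. Fabp5, a fatty acid-binding protein of the same list, was at 77.3 CPM in the sorted cells at 72 h and at 56.5 and 51.1 CPM at 96 h, so that the list had no common direction. The part of other cells in these levels was not tested.

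The genes with the smallest unadjusted p were those the rule on named genes gave in place of called genes, and none passed. Besides Pdia5, Mdk, Col4a1, Ctgf and Myl9, those with a higher level at 96 h were Numa1, Kansl3, Frmd4a, Gpx3, Zmym5, Adnp and Timp2. Gpx3, the secreted glutathione peroxidase, was at 39.0 CPM at 72 h and at 203 and 70.3 CPM at 96 h (log2 difference 1.72 ± 0.54, SE, unadjusted p = 0.00999, edgeR). Timp2, an inhibitor of matrix metalloproteinases, was at 11.8 CPM and at 34.1 and 38.3 CPM (1.53 ± 0.51, unadjusted p = 0.0134, edgeR). Numa1, Kansl3, Frmd4a, Zmym5 and Adnp had at most 5 UMIs at 72 h, and all of them are in the longest quartile of transcripts.

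Genes with a lower level were Rabif, Snhg4, Cox7a1, Upp1, Asns, Tsfm, Mrps34, Ankmy2, Polr1b, Slc25a5, 1700047I17Rik2 and Asnsd1. Asns, asparagine synthetase, was at 435 CPM at 72 h and at 302 and 185 CPM at 96 h (log2 difference -0.92 ± 0.30, SE, unadjusted p = 0.0121, edgeR). Slc25a5, the ADP/ATP carrier of the inner mitochondrial membrane, was at 1697 CPM and at 1087 and 1112 CPM (-0.70 ± 0.27, unadjusted p = 0.0283, edgeR). Upp1, uridine phosphorylase, was at 116 CPM and at 71.2 and 40.2 CPM (-1.12 ± 0.35, unadjusted p = 0.00957, edgeR). Both 96 h libraries were below 72 h in all 3 genes, and the replicates were closest to each other for Slc25a5. In mESCs Asns was at 1270.4 and 1038 CPM and Upp1 at 613 and 424 CPM, above all 3 sorted XEN-like libraries, and Slc25a5 was at 1660 and 1183 CPM. Cox7a1, at 19.9 CPM at 72 h and at 7.63 and 6.39 CPM at 96 h, was also above these in mESCs, at 67.003 and 92.8 CPM. The part of undifferentiated cells in these levels was not tested. In the whole culture Asns was at 234, 236 and 234 CPM and Slc25a5 at 1154, 1219 and 1104 CPM over the same times.

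Whether the 24 h step differed between the XEN gate and the PDGFRA- cells was tested as an interaction, (XEN-like 96 h minus 72 h) minus (ectoderm-like 96 h minus the mean of PDGFRA- T1, T2 and T3 at 72 h). This contrast also takes out what all 72 h sorts or all 96 h sorts share. The PDGFRA- arm did not keep the same gate, since all CD24 terciles entered at 72 h and CD24+ cells alone at 96 h. In that arm, time and the change of gate cannot be told apart. edgeR's quasi-likelihood test with Benjamini-Hochberg adjustment called 0 of 7044 genes, with 72 genes of a higher and 29 of a lower contrast at an unadjusted p under 0.05, and DESeq2 called 0, with 34 and 3. For Sparc the contrast was 0.55 ± 0.82 (SE, unadjusted p = 0.515, edgeR) and for Col4a1 0.89 ± 1.00 (0.394). For Ctsd it was 1.31 ± 0.41 (0.00957), with PDGFRA- cells at 307, 256 and 201 CPM at 72 h and ectoderm-like cells at 189 and 206 CPM at 96 h. For Mdk it was 1.77 ± 0.65 (0.0212), with PDGFRA- cells at 500, 763 and 706 CPM and ectoderm-like cells at 1056 and 534 CPM. Of the 13 basement membrane genes 8 had a contrast above 0, and of the 11 XEN markers 4, beside 3516 of all 7044 genes tested. XEN markers summed to 486 and 1781 CPM in ectoderm-like replicates 1 and 2, against 798, 474 and 357 CPM in T1, T2 and T3. Col4a1 was at 61.8 and 159 CPM in the same replicates, and at 39.7, 23.9 and 24.6 CPM in T1, T2 and T3. Higher levels in the ectoderm-like sort lower the contrast, and the part of this was not tested.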

How the data were processed

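Bulk 3′-end RNA-seq libraries with UMIs were made from 10 ng of total RNA. The authors aligned reads with BWA 0.7.4 to RefSeq mRNAs (mm10), the mitochondrial genome and spike-ins, counted each UMI once per gene, and deposited the raw counts. For SCRB-seq, the authors deposited counts per well, obtained in the same manner. Of 23481 genes, Rn45s and Gkn2 (3 damaged values) and 27 entries with a date for a name (0.172% of the UMIs of the sorted XEN-like libraries) were left out. Totals over the 25 bulk libraries were 1062196 to 2455663 UMIs.

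Genes with at least 30 UMIs over the 3 libraries of the gate were fitted with edgeR 4.0.16 (R 4.3.3, limma 3.58.1; TMM, quasi-likelihood, Benjamini-Hochberg) over 7 libraries (10 for the interaction), with DESeq2 1.42.0, other scalings, filters and left-out libraries as alternatives. The step was tested on simulated data, where most of the smallest changes simulated were not called. Distances used log2(CPM + 1). Ratio intervals are exact at 95%. SEs were computed as the absolute log2 difference over the square root of the quasi-likelihood F statistic. Transcript lengths (longest per gene) and gene coordinates are from GENCODE M21. Python 3.11.15 with numpy 2.4.6, pandas 2.3.3, scipy 1.17.1 and matplotlib 3.10.9 was used.

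Members and the 31 gene lists were chosen with earlier results of these data known. Named genes are Sparc, Lama1, Dab2, Pdgfra and Cd24a, in each direction the 12 called genes with the largest change (the 12 smallest unadjusted p where fewer than 5 were called), and the 2 most abundant members of each list, of which 1 is not reported here. Lists were described by counts and medians; further genes (Epas1, B3galnt1, Ctsz, Lrpap1, Tinagl1, Acta2, Vim, Nid2, Smoc1, Hspg2, Agrn, Lrp2, Cyr61, Nid1, Ttr, Elf3, Pth1r, Gata4, Gata6, Col4a2, Lamc1, Serpinh1, Ctsd, Spp1, Gpx2, F3, Tpr, Rrbp1 and Igf2) were named after their values were seen.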

Additional observations from a re-analysis of the deposited data

How the results depend on the processing

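No alternative called a gene at 96 h against 72 h or in the interaction. These were library totals, DESeq2 size factors, other filters, DESeq2 and the 3 libraries of the gate alone. A term for the form of the labels and single CD24 terciles were also used. The label term rests on the difference between the 2 mESC libraries alone, whose labels differ in this form. Whether it holds for XEN-like cells was not tested. In further fits each mESC library and each ectoderm-like and XEN-like library of 96 h was left out in turn. Unadjusted p under 0.05 was met by 73 higher and 63 lower genes without XEN-like replicate 1, by 216 and 24 without replicate 2, by 234 and 114 with the term for the form of the labels, by 275 and 62 of 14002 genes with no filter and by 130 and 10 with library totals, beside 110 and 22. With the replicate number of both 96 h sorts as a replicate block, 0 genes were called, with 175 higher and 40 lower. For the interaction, 72 higher and 29 lower became 60 and 68 without XEN-like replicate 1, 163 and 58 without ectoderm-like replicate 1, 86 and 13 without ectoderm-like replicate 2, 243 and 46 with CD24 T1 alone, 18 and 30 with T3 alone and 109 and 43 with the replicate block, with 0 genes called in each. Replicate differences of both sorts correlated at r = 0.375 over genes, but the numbers are not stated to pair the samples. Of the 101 genes named, 36 changed sign under an alternative and the other 65 kept their direction under those run. With 1 library left out in turn, the log2 difference of 25 changed sign, and ranged over -0.093 to 0.14 for Dab2, -0.16 to 0.36 for Gata6, -1.24 to 1.55 for Hspg2, -0.17 to 0.53 for Agrn, -0.13 to 0.34 for P4hb, -0.063 to 3.20 for Rrbp1, -0.18 to 1.69 for F3, -0.15 to 0.48 for Cd63, -0.79 to 0.69 for Cubn, -0.51 to 0.34 for Cited1, -0.69 to 0.0064 for Cyp26a1, -0.64 to 0.11 for Elf3, -0.31 to 0.95 for Id2, -0.19 to 0.28 for Pcna, -0.50 to 0.57 for Tagln2, -0.11 to 0.90 for Hsp90b1, -0.0095 to 0.38 for Foxa2, -0.040 to 0.27 for Bax, -0.078 to 0.45 for Ccng1, -0.14 to 0.74 for Insig1, -0.074 to 0.020 for Gapdh, -0.16 to 0.47 for Hsp90aa1, -0.10 to 0.29 for Dnmt3b, -0.073 to 0.057 for Stra6 and -0.61 to 0.15 for Cldn6. With the label term the sign changed for Dab2 (-1.08), Cd24a (1.32), Cyr61 (-0.038), Dppa5a (0.087), F3 (-0.055), Vim (0.045), Lrp2 (-0.67), Cited1 (0.23), Pth1r (1.90), Elf3 (0.74), Pcna (-0.38), Tagln2 (-0.14), Tpm4 (-0.33), Bax (-0.098), Eno1 (0.56), Gapdh (0.15), Impact (0.35), Dnmt3b (-0.82), Stra6 (-0.85), Cldn6 (1.43) and Krt8 (-0.22). Relative to genes of like length it changed for Dab2 (-0.039), Pdgfra (-0.077), Hspg2 (-0.079), Agrn (-0.13), Cubn (-0.34), Cited1 (0.042), Pth1r (0.044) and Gapdh (0.079), with library totals for Cited1 (0.042), Pth1r (0.067), Gapdh (0.070) and Impact (0.0019), and with the replicate block for Cited1 (0.0062) and Pth1r (0.039). Stra6 changed sign with DESeq2 (-0.0086), its size factors in edgeR (-0.010), edgeR's own filter (-0.035), no filter (-0.0083) and relative to Actb (-0.017). The cause was not tested. For genes with few UMIs, counting error limits what could be seen.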

Other observations

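Some genes differed widely between the 96 h replicates. Spp1, the secreted phosphoprotein osteopontin, was at 144 CPM at 72 h and at 126 CPM in replicate 1, but at 11.9 CPM in replicate 2. Gpx2, a glutathione peroxidase of endodermal epithelia, was at 121 CPM at 72 h and at 90.0 and 16.4 CPM at 96 h. F3, tissue factor, a receptor known from parietal endoderm, was at 108 CPM at 72 h and at 108 and 348 CPM at 96 h. Tpr, a nuclear pore protein, was at 74.3 CPM at 72 h and at 577 and 107 CPM at 96 h, against 576 and 579 CPM in the whole culture of 72 h and 96 h. Rrbp1, the ribosome-binding protein of the rough endoplasmic reticulum, was at 35.3 CPM at 72 h and at 367 and 33.8 CPM at 96 h. These 5 genes were chosen after their values were seen, and both Tpr (780 and 207 CPM) and Rrbp1 (94.6 and 33.0 CPM) were also higher in replicate 1 than in replicate 2 of the ectoderm-like sort.

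Among 14 tested imprinted genes 7 were higher in both 96 h libraries and 3 lower (50% and 21.4%). Relative to genes of like length, 5 were higher and 4 lower (35.7% and 28.6%), beside 30.6% of all genes in each direction. Gnas, which encodes the stimulatory G protein α subunit, was at 139 CPM at 72 h and at 270 and 240 CPM at 96 h (log2 difference 0.80 ± 0.32, SE, unadjusted p = 0.0323, edgeR). Igf2, the fetal insulin-like growth factor, was at 22.8 CPM and at 44.8 and 51.1 CPM. Impact, a translational regulator, was at 117 CPM in all 3 libraries. Of 20 tested cholesterol synthesis genes 8 were higher and 3 lower, and of 19 glycolysis and hypoxia genes 7 and 4, with medians of 0.10 and -0.01 on the log2 scale. These shares (40% and 36.8% higher, 15% and 21.1% lower) lie near those of all genes tested, 36.2% and 23.7%. Fdps, which makes farnesyl diphosphate, was at 881 CPM at 72 h and at 784 and 681 CPM at 96 h, and Insig1, a sterol sensor, at 259 CPM and at 266 and 433 CPM. No gene of these lists passed the test.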
